A study of Mus musculus with 22 samples.

Results

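Promoter peaks that close in hepatocytes of mice with diet-induced steatohepatitis, on 2 different diets, are described here. They are 200 bp stretches of open chromatin from ATAC-seq, an assay that counts where a transposase can insert into accessible DNA. A peak belongs to the set where its distance to the nearest transcription start is at most 1000 bp and its level was lower in advanced disease than in controls by at least 0.6 on the log2 scale in both diets. Of 68827 peaks in the series, 20072 lie that close to a start, and 596 of these (2.97%) form the set. They lie next to 523 different genes, of which 60 hold 2 of the peaks, 5 hold 3, and 1, Lin7a, holds 4. The set was chosen by measured values of the advanced and control livers, so those values are given as a description and carry no test.

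The 22 libraries come from male HEP-INTACT mice, in which hepatocyte nuclei carry a tag that allows them to be pulled out of the whole liver on beads. Mice of the FPC arm (a diet of fructose, palmitate and cholesterol) were studied at 20 weeks, with 4 control, 4 mild and 3 advanced livers. Mice of the CDAHFD arm (a high-fat diet of defined amino acids that lacks choline) were studied at 7 weeks, also with 4 control, 4 mild and 3 advanced livers. Controls were kept on low-fat food for as long as the mice of their arm. Histology decided whether a liver on a disease diet was mild or advanced: both kinds were steatotic and inflamed, and marked fibrosis was found in the advanced kind alone. All animals were HEP-INTACT males, so nothing here concerns females or nuclei other than the tagged ones. Each library is 1 mouse.

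A promoter is the stretch around a transcription start where the polymerase and general factors assemble. Most mammalian promoters are rich in the dinucleotide CpG, lie in CpG islands and are open in nearly every cell type. Genes that serve 1 tissue often have CpG-poor promoters, which depend on factors of that tissue. In the hepatocyte such genes include those for plasma proteins, bile acid handling, amino acid breakdown, cytochrome P450 enzymes and the male-biased genes that follow the pulses of growth hormone.

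Promoter sequences from RefSeq (GRCm38.p6, the assembly that mm10 names) are shown for 10 peaks. CpG content, which the choice of members did not use, differed between members that overlap such a sequence and promoter peaks in general that do. Each is the part of the peak that lies before the start of its gene, written 5′ to 3′ along the strand of the gene, and capitals mark every CpG. The first 8 are peaks of liver genes with at most 4 CpG. The last 2 are CpG-richer members, and Susd4 was chosen for display after its values were seen.
Hsd3b5, chr3:98645535-98645691, minus strand: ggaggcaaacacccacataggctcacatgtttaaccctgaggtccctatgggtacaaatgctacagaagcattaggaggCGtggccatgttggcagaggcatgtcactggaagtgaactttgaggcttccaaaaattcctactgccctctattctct
Mup3, chr4:62087318-62087476, minus strand: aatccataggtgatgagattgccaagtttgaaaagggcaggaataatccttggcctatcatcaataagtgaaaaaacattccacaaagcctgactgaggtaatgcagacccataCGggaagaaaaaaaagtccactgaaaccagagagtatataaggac
Sult2a8, chr7:14446588-14446720, minus strand: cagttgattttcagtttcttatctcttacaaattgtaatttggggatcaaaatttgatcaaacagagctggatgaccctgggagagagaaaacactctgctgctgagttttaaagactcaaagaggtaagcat
Insig2, chr1:121332590-121332778, minus strand: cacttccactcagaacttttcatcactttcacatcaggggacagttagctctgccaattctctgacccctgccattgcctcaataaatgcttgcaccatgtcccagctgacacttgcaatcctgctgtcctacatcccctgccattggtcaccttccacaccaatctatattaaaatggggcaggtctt
Agxt, chr1:93135129-93135239, plus strand: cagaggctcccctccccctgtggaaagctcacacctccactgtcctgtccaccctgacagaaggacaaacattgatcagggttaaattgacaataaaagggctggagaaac
Cyp2d9, chr15:82452205-82452376, plus strand: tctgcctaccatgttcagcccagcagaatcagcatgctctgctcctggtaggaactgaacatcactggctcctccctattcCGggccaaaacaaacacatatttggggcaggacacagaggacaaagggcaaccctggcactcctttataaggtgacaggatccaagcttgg
F11, chr8:45262032-45262198, minus strand: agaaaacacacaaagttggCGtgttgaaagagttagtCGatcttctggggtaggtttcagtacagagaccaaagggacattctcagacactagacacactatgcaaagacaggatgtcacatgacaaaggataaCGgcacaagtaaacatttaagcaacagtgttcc
Slc10a1, chr12:80968080-80968236, minus strand: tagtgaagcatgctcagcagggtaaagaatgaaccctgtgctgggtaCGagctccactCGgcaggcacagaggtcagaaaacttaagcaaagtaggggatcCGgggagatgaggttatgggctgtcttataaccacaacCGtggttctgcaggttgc
Aadat, chr8:60505945-60506123, plus strand: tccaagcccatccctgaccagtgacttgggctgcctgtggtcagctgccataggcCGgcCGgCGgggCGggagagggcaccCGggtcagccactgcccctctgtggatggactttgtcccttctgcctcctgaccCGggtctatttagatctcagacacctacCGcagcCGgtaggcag
Susd4, chr1:182764070-182764215, plus strand: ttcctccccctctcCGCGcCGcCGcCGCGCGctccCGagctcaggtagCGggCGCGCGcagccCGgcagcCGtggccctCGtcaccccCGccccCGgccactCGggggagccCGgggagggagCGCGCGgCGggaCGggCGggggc
Sult2a8, Insig2 and Agxt hold no CpG in these stretches, Hsd3b5, Mup3 and Cyp2d9 hold 1, and F11 and Slc10a1 hold 3 and 4. Aadat holds 8 in 179 bases and Susd4 25 in 146 bases.

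A RefSeq window of 300 bases (250 before the start and 50 after it) overlapped the member peak of its own gene by at least 100 bases for 110 of the 596 peaks, which gave 108 windows. The same overlap was found for 9213 of the 20072 promoter peaks, a larger share, which gave 8741 windows. The composition of the other members was not measured. Member windows held a median of 6 CpG (quartiles 3 and 13), against 22 (15 and 29) over all windows. Their median GC content was 53.0%, against 62.0%. At most 4 CpG were found in 37.0% of member windows and in 4.61% of all windows. Read the other way, 40 of 403 windows with at most 4 CpG belonged to members (9.93%), against 68 of 8338 windows with more (0.816%). No test was run on these shares.

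Short motifs were looked for on both strands of the same windows, and a match describes letters, not a bound factor. GGGCGG, the GC box, was in 36.1% of member windows and 69.7% of all windows. CCGGAAG, an ETS motif, was in 3.70% against 19.7%. GCGCATG, letters of the NRF1 site, was in none of the 108 member windows and in 7.83% of all windows. CAAAGTC, letters of the site of the hepatocyte factor HNF4A, was in 8.33% of member windows against 3.74%. GTTAATN, letters of the HNF1 site, was in 9.26% against 4.23%. TTGCNNAA, a CEBP motif, was in 13.9% against 8.20%, and TATAAA in 11.1% against 6.52%. Among windows with at most 4 CpG, the order of the liver factor motifs was the other way round or the shares were close: HNF4A letters were in 7.50% of 40 member windows against 8.93% of 403, HNF1 letters in 12.5% against 17.9%, and CEBP letters in 17.5% against 20.3%. TATAAA was in 15% against 22.6% there, also the other way round, and the GC box in 7.50% against 9.93%. The ETS and NRF1 letters, which contain CpG, were in none of these 40 member windows. They were rare in the 403 as well, at 1.49% and 0.248%. TTCNNNGAA, a STAT motif, was in 4.63% of member windows and 6.64% of all windows, and at low CpG in 5% against 11.2%. The other motifs searched were TGTTTAC for FOXA (3.70% of member windows against 2.68% of all), AAGGTCA for LRH1 (5.56% against 3.05%), GGAATGT for TEAD (5.56% against 2.46%), CCAAT (47.2% against 40.7%) and CACGTG, an E-box (6.48% against 11.3%). TGANTCA, the AP-1 motif, was in 8 of those 40 member windows (20.0%) and in 14.1% of the 403.

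The peaks of the set also lay farther from starts than promoter peaks do in general. Of the members 34.4% were within 250 bp of the start, against 64.9% of all promoter peaks, and 42.1% were over 500 bp away, against 16.5%. The share of promoter peaks that belonged to the set was 1.27% within 100 bp, 2.41% from 101 to 250 bp, 3.75% from 251 to 500 bp and 7.58% from 501 to 1000 bp. Introns held 31.7% of the members and 15.1% of all promoter peaks, by the authors' annotation. Of all peaks beyond 1000 bp, 17.9% passed the same threshold in both diets, so the share was lower at promoters than away from them. Non-coding RNA genes were nearest to 11.2% of the members, against 5.17% of all promoter peaks.

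**Figure D1:**
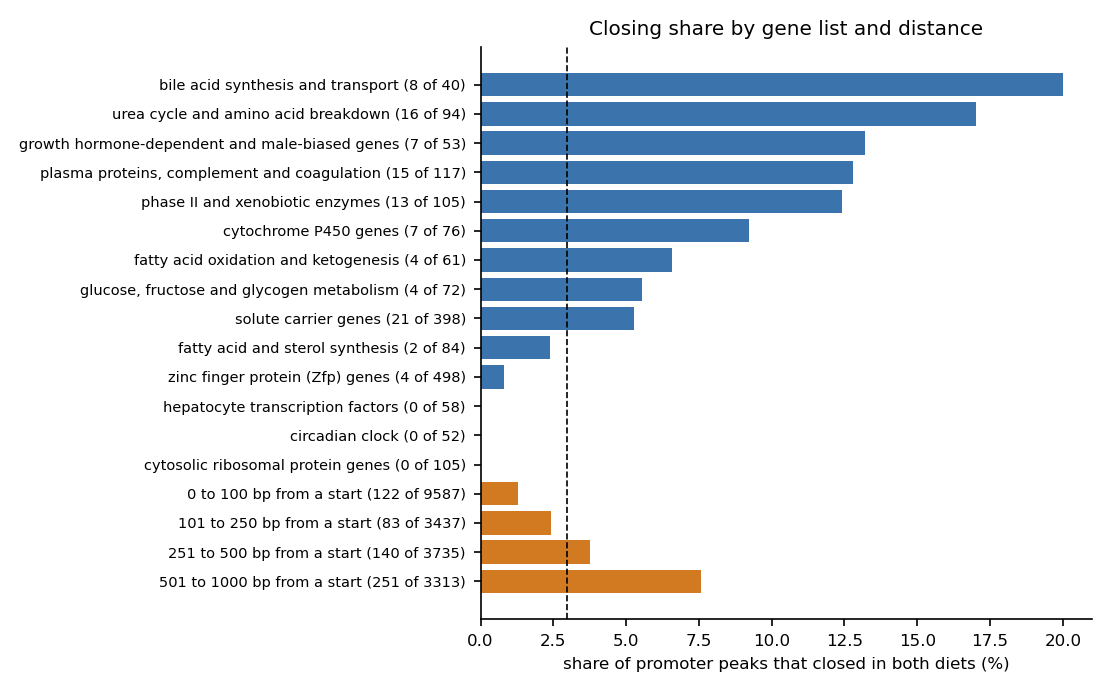
Share of promoter peaks that closed in both diets (%, horizontal axis), for the promoter peaks of 14 gene lists (blue) and for 4 ranges of distance to the start (orange), with the number of peaks of each in brackets. The dashed line is the share over all 20072 promoter peaks, 2.97%. Bile acid genes reach 20.0%, and clock genes, hepatocyte transcription factors and ribosomal protein genes stand at 0.

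Levels are given in CPM, counts of a peak per 1000000 counts of its library, and changes as log2 of the ratio of 2 group means after 0.5 CPM was added to each. Library totals ran from 3.79 to 9.33 in units of 1000000 counts. The share of a library's counts that lay in promoter peaks was higher in disease, from 41.5% ± 0.723 (SD, n = 4) in FPC controls to 46.2% ± 0.529 (n = 3) in advanced livers, and from 41.4% ± 0.52 (n = 4) to 44.7% ± 1.3 (n = 3) on CDAHFD. Over all promoter peaks the median change, advanced against control, was 0.19 on FPC and 0.10 on CDAHFD. In the opposite direction, 1848 promoter peaks (9.21%) were higher by at least 0.6 in both diets. Each diet alone put 994 promoter peaks (4.95%) on FPC and 987 (4.92%) on CDAHFD past the threshold for loss.

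**Figure D2:**
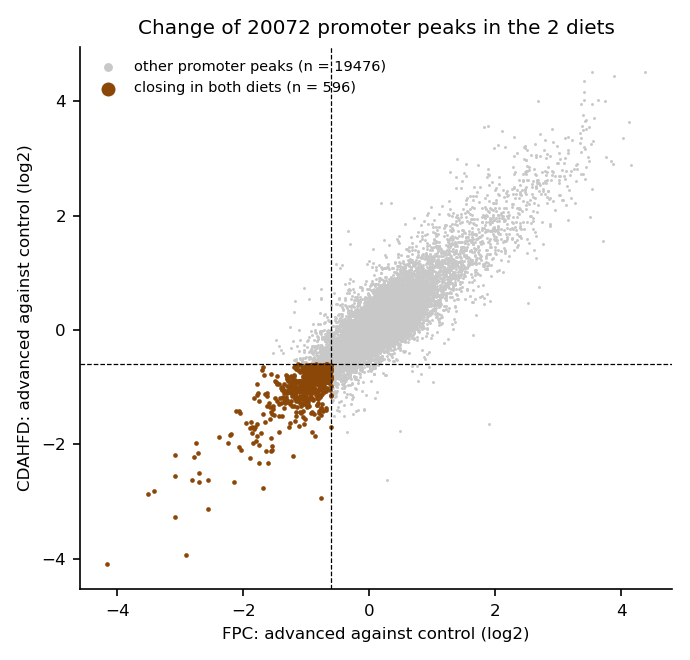
Change of each promoter peak, advanced against control, on FPC (horizontal axis, log2) and on CDAHFD (vertical axis, log2), with dashed lines at −0.6. The 596 closing peaks (brown) fill the lower left corner by choice, and the other promoter peaks (grey) lie mostly around and above 0.

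The summed level of the 596 peaks on FPC was 9714 ± 125 CPM (SD, n = 4) in controls, 6962 ± 93.2 (n = 4) in mild and 4753 ± 381 (n = 3) in advanced livers. On CDAHFD it was 8947 ± 76.9 (SD, n = 4), 6020 ± 244 (n = 4) and 4409 ± 227 (n = 3). The lowest control library stood at 9540 on FPC and 8836 on CDAHFD. The mild libraries reached at most 7044 and 6259, and stayed above the highest advanced library, at 5037 and 4561. In neither diet did the sums of the 3 stages overlap. Since the libraries hold many nuclei, fewer nuclei with an open promoter and less opening in each nucleus cannot be told apart.

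**Figure D3:**
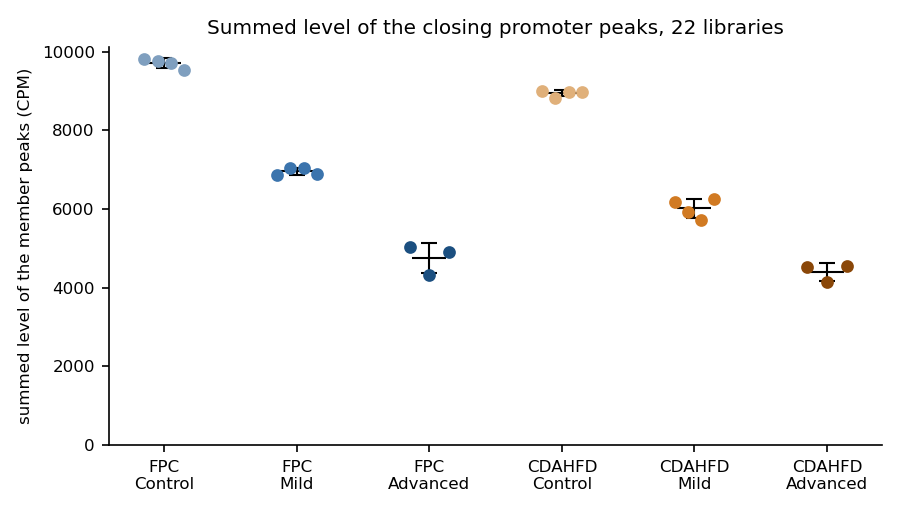
Summed level of the 596 closing promoter peaks (CPM, vertical axis, from 0) in each of the 22 libraries, by diet and stage. Points are libraries, and bars show the mean and SD. Mild libraries lie between control and advanced libraries in both diets.

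Among members the median change, advanced against control, was −0.94 on FPC and −0.92 on CDAHFD. It was at most −1 in both diets for 163 peaks (27.3%) and at most −2 for 17. The 2 diets differed by under 0.5 in the change of 531 members, and by at least 1 in 6. The median control level was 12.5 CPM, against 15.1 CPM over all promoter peaks. Mild livers lay between control and advanced livers on average for 565 members on FPC and 558 on CDAHFD. The median share of the advanced change that mild livers already showed was 48.6% on FPC and 55.9% on CDAHFD. All mild libraries lay below all controls for 302 members on FPC (50.7%, against 6.27% of all promoter peaks) and for 347 on CDAHFD (58.2%, against 8.07%). Control livers entered both the choice and these counts, so nothing is read from the excess.

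The largest change was at Hsd3b5, a hydroxysteroid dehydrogenase made in male liver under growth hormone, whose peak lies at −57 bp from the start. On FPC its level was 12.4, 11.8, 21.6 and 15.8 CPM in control, 3.39, 2.25, 1.39 and 1.59 CPM in mild and 0.502, 0.35 and 0.318 CPM in advanced livers. On CDAHFD it was 12.3, 25.5, 12.2 and 13.1 CPM in control, 0.984, 0.996, 2.77 and 0.858 CPM in mild and 0.541, 0.165 and 0.637 CPM in advanced livers. Every mild library was below every control, and every advanced library below every mild one, with changes of −4.16 on FPC and −4.10 on CDAHFD. This promoter, printed above with its single CpG, kept under 1 CPM in all 6 advanced livers.

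Of 53 promoter peaks of the growth hormone-dependent and male-biased list 7 were members (13.2%), each of a different gene: Ces3b, Cyp2d9, Elovl3, Hsd3b5, Mup3, Slco1a1 and Susd4. The list's median over its 53 peaks was −0.25 on FPC and −0.17 on CDAHFD. Mup3, a major urinary protein that carries pheromones, followed Hsd3b5 in size. Its peak stood at 13.7, 15.9, 15.3 and 18.5 CPM in control, 7.77, 8.56, 9.1 and 7.38 CPM in mild and 3.27, 1.68 and 1.11 CPM in advanced livers on FPC. In the other arm its level was 16.5, 16.8, 16.7 and 19.4 CPM in control, 4.66, 5.18, 2.85 and 3.81 CPM in mild and 2.76, 2.06 and 2.2 CPM in advanced livers. The stages did not overlap in either diet, and the mild livers on CDAHFD were nearer to the advanced ones. Elovl3, an elongase of very long chain fatty acids, had different levels in mild livers of the 2 diets. On FPC its level was 23, 20.3, 19.1 and 26.4 CPM in control, 20.9, 20.7, 23.2 and 21.6 CPM in mild and 9.04, 4.13 and 5.64 CPM in advanced livers, so that mild and control livers shared a range. Levels on CDAHFD were 20.4, 21, 24.6 and 24.7 CPM in control, 9.19, 11.6, 10.2 and 7.61 CPM in mild and 3.84, 6.17 and 2.34 CPM in advanced livers, with the mild livers apart from both other stages. Mup3, Cyp2d9 and Ces3b have near-identical neighbours in gene clusters, and reads that fit several copies make their levels uncertain.

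Bile acid synthesis and transport had 8 of 40 promoter peaks in the set (20.0%), the highest share of the lists of gene function, at Abcb11, Abcg8, Akr1d1, Slc10a1, Slc27a5, Slco1a1 and Slco2b1. Slc10a1 encodes NTCP, which takes bile acids up from the blood, and holds 2 overlapping member peaks. The one at −57 bp from its start stood at 17.5, 16.6, 18.7 and 16 CPM in control, 16.7, 14, 14.1 and 15.1 CPM in mild and 11.5, 4.27 and 8.9 CPM in advanced livers on FPC. On CDAHFD the same peak was at 15.5, 16.3, 17.4 and 20 CPM in control, 9.91, 8.5, 10.7 and 13.8 CPM in mild and 8.23, 4.61 and 7.3 CPM in advanced livers. All 3 stages were apart on CDAHFD, whereas on FPC the highest mild library reached the range of the controls. The mean changes of Slco1a1, an organic anion carrier, were −1.78 on FPC and −1.65 on CDAHFD. Slc27a5, which activates bile acids for conjugation, had −0.84 and −1.10. Over the whole list the median change was −0.27 in both diets.

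Urea cycle and amino acid breakdown gave 16 of 94 promoter peaks (17%) at 11 genes: Agxt, Arg1, Bhmt2, Ftcd, Haao, Hal, Ido2, Kmo, Kynu, Otc and Sardh. Agxt, which clears glyoxylate in peroxisomes, was at 27.5, 28.5, 32.3 and 33.2 CPM in control, 10.5, 18.6, 17.7 and 15.9 CPM in mild and 12.2, 13.1 and 9.21 CPM in advanced livers on FPC. On CDAHFD its peak stood at 32.3, 29.3, 37.6 and 31.6 CPM in control, 18.4, 20.3, 16.4 and 17.5 CPM in mild and 17.5, 12.3 and 15.1 CPM in advanced livers. Controls were apart from all diseased livers in both diets, and mild and advanced livers overlapped. Several of these genes break down tryptophan or histidine. Kmo, a kynurenine hydroxylase, had changes of −1.37 on FPC and −1.18 on CDAHFD at its peak at −478 bp from the start. Hal, which opens histidine breakdown, had −1.24 and −1.10, and Ftcd, a later histidine enzyme, −1.12 and −1.09. Haao, which acts after Kmo, was among the highest members, at 52.4 CPM in FPC controls and 52.0 CPM in CDAHFD controls, and changed by −0.68 and −1.07. No peak of this list was higher by 0.6 in both diets.

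Plasma proteins, complement and coagulation had 15 of 117 promoter peaks in the set (12.8%), at 12 genes. F11, coagulation factor XI, stood at 20.3, 22.6, 22.4 and 26.4 CPM in control, 10.4, 13.4, 13.3 and 12 CPM in mild and 12.5, 7.01 and 9.77 CPM in advanced livers on FPC. The CDAHFD libraries stood at 29.6, 21.3, 26.4 and 25 CPM in control, 16.7, 11, 12.5 and 16.5 CPM in mild and 12.7, 10.3 and 15 CPM in advanced livers. Controls did not overlap with diseased livers in either diet, and the ranges of mild and advanced livers overlapped. F7, coagulation factor VII, changed by −1.18 and −1.20, and C8b, a complement component, by −1.18 and −1.13 at a low level of 4.27 CPM in FPC controls. Albumin, whose promoter peak is no member, held 57.1 CPM in FPC controls and 55.7 CPM in advanced FPC livers, and 59.7 and 58.0 CPM on CDAHFD. Over all 117 peaks of the list the median changes were −0.31 and −0.20.

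Enzymes of phase II and xenobiotic metabolism held 13 of 105 peaks (12.4%) at 10 genes, and cytochrome P450 genes 7 of 76 (9.21%) at 6. Sult2a8, a liver sulfotransferase, has 2 overlapping member peaks. The one nearer to its start was at 7.08, 7.93, 8.53 and 6.98 CPM in control, 4.78, 3.33, 4.85 and 3.6 CPM in mild and 0.754, 0 and 0.636 CPM in advanced livers on FPC. For CDAHFD the values were 6.98, 6.14, 8.65 and 6.97 CPM in control, 1.84, 2.59, 1.79 and 2.63 CPM in mild and 1.41, 0.329 and 0.708 CPM in advanced livers. The stages were apart in both diets, with changes of −3.08 and −2.55. Among P450 genes Cyp2d13, annotated as a pseudogene, changed by −1.56 and −1.44, Cyp2f2 by −1.63 and −1.11, and Cyp2d40 by −0.84 and −1.31. Ces3b, a carboxylesterase, and Serpina3k, a serine protease inhibitor of the plasma, were high in a few libraries, and Serpina3k was chosen for display after its values were seen. On FPC Serpina3k was at 33, 13.1, 30.1 and 12.1 CPM in control, 28.1, 9.82, 11.1 and 8.3 CPM in mild and 10.4, 9.32 and 6.2 CPM in advanced livers. On CDAHFD Serpina3k stood at 11.5, 36.2, 14.5 and 21.1 CPM in control, 17.7, 15.2, 24.2 and 15.5 CPM in mild and 10.4, 10.1 and 13.6 CPM in advanced livers. FPC control libraries 1 and 3 and CDAHFD control library 2 carried the control means, and FPC mild library 1 and CDAHFD mild library 3 were the highest mild ones. Ces3b was also highest in those 3 control libraries. Without the 3 libraries the rule again picked 596 peaks, of which 522 were the same. For Ces3b and Serpina3k the control mean therefore rests on few livers rather than on whole groups.

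Lipid and glucose lists had smaller shares of their promoter peaks in the set than the lists described above. Fatty acid and sterol synthesis had 2 of 84 peaks (2.38%), close to the 2.97% of all promoter peaks, at Insig2 and Thrsp. Insig2 encodes an ER protein that holds back SREBP, the activator of sterol and fat synthesis. On FPC its level was 21.1, 19, 15.8 and 27.6 CPM in control, 13.4, 26.7, 25.7 and 24.4 CPM in mild and 9.71, 3.5 and 7.15 CPM in advanced livers. Levels on CDAHFD were 18.2, 19.8, 20.8 and 30.2 CPM in control, 9.65, 9.43, 6.67 and 13.7 CPM in mild and 5.14, 2.88 and 6.3 CPM in advanced livers. In 3 of the 4 mild FPC livers the peak was as high as in controls, while all mild CDAHFD livers were below all controls. Thrsp, the thyroid hormone responsive Spot 14 protein of fat synthesis, was among the higher peaks. It stood at 56.1, 53.8, 49.8 and 57.4 CPM in control, 57, 36.9, 41.5 and 46.9 CPM in mild and 34.5, 19.3 and 32.1 CPM in advanced livers on FPC. The CDAHFD libraries stood at 42.2, 41.3, 38.9 and 60.8 CPM in control, 21.3, 25, 21.6 and 32.6 CPM in mild and 11.5, 14.8 and 12.7 CPM in advanced livers. Stages were apart on CDAHFD, and on FPC mild livers overlapped with controls. Fatty acid oxidation had 4 of 61 peaks (6.56%), 3 of them at Acsl1, an acyl-CoA synthetase, and 1 at Acot12. Glucose and glycogen genes had 4 of 72 (5.56%): Fbp1, Gbe1, Gckr and Ppp1r3b, with changes from −0.72 to −1.16 on FPC and from −0.93 to −1.17 on CDAHFD.

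Solute carriers held 21 of 398 peaks (5.28%) at 18 genes. Slc30a10, a manganese exporter, had the largest difference between diets of any member. On FPC it stood at 13.8, 13.5, 13.4 and 16.8 CPM in control, 6.97, 14.5, 8.93 and 12.1 CPM in mild and 7.7, 4.41 and 12.6 CPM in advanced livers. For CDAHFD the values were 18.7, 14.3, 22.2 and 21.5 CPM in control, 4.53, 7.1, 3.58 and 5.2 CPM in mild and 1.95, 1.4 and 2.83 CPM in advanced livers. Its change was −0.77 on FPC, where advanced livers were below all controls and mild livers overlapped with both, and −2.94 on CDAHFD, where the stages were apart. Next in order of difference, D830013O20Rik, a non-coding transcript, changed by −0.61 on FPC and −1.70 on CDAHFD, and Serpina4-ps1, a pseudogene, by −1.69 and −2.77. In the opposite direction Arhgap6 changed by −1.70 on FPC and −0.70 on CDAHFD, Ccdc169 by −1.69 and −0.65, and the second Sult2a8 peak by −3.08 and −2.19. The members were named for these differences, which carry no test.

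Several lists had no member at all, beside 2.97% of all promoter peaks in the set. At that share a short list would hold few members, so nothing is read from the absence in the shorter lists. None of 58 promoter peaks of hepatocyte transcription factors belonged to the set, with median changes of −0.01 on FPC and −0.07 on CDAHFD. The same held for 52 peaks of the circadian clock, 105 of cytosolic ribosomal proteins, 90 of mitochondrial ribosomal proteins, 46 of cell cycle genes and 48 of AP-1 and immediate early genes. Zinc finger genes of the Zfp series had 4 of 498 (0.803%). The 28 promoter peaks of biliary and progenitor genes held no member and 15 that were higher by at least 0.6 in both diets, and of 32 peaks of YAP and TEAD targets 14 were higher. NRF2 target genes had no member among 47 peaks and 8 that were higher. The gene for NRF2 itself, Nfe2l2, holds 2 members. The larger one, at −630 bp from the start, stood at 53.4, 68, 47.5 and 63.7 CPM in control, 41, 40.3, 42.4 and 45.4 CPM in mild and 38.5, 31.5 and 28.3 CPM in advanced livers on FPC. On CDAHFD it was at 62.8, 54, 64.1 and 49 CPM in control, 35.9, 37.2, 28 and 35.6 CPM in mild and 27.9, 34 and 32.4 CPM in advanced livers. Controls were above all diseased livers in both diets, and mild and advanced livers overlapped on CDAHFD. Within 50 kb Nfe2l2 had 16 peaks, of which 4 were lower and 2 higher by at least 0.6 in both diets. Nfe2l2 was one of the 8 highest members, with D830013O20Rik, Jph1, Aadat, Haao, Gm29669, Dnm3 and Idh1. Idh1, the cytosolic isocitrate dehydrogenase, was at 63.5, 66.7, 63.1 and 66 CPM in control, 50.8, 48.7, 45.3 and 51.3 CPM in mild and 40.4, 34.5 and 38.8 CPM in advanced livers on FPC, with 3 separate stages. Levels on CDAHFD were 59.9, 57.7, 57.4 and 55.1 CPM in control, 40.8, 40.4, 46.7 and 45.6 CPM in mild and 32.9, 36 and 37.7 CPM in advanced livers, also with 3 separate stages.

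Markers of other cell types were read beside these lists. Of 20 endothelial markers 3 have a promoter peak, and 1 of their 5 peaks, at −356 bp from a start of Gata4, is a member. The summed level of the endothelial peaks ran from 86.7 to 90.6 CPM in FPC controls and from 79.3 to 83.8 CPM in advanced FPC livers, and from 87.8 to 100 and from 72.9 to 78.3 CPM on CDAHFD. The Gata4 peaks, which include the member chosen for its fall, had a mean sum of 48.1 CPM in FPC controls and 36.3 CPM in advanced FPC livers. On CDAHFD their mean sums were 48.0 and 30.8 CPM. Tie1 also fell, from 8.28 to 5.64 CPM on FPC and from 10.4 to 3.63 CPM on CDAHFD. Ets1 went the other way, from 32.5 to 40.0 CPM on FPC and from 36.3 to 41.9 CPM on CDAHFD. Pecam1, Cdh5, Kdr and Stab2 had no promoter peak. Of 20 stellate cell markers 2 had promoter peaks, of 21 macrophage markers 1, and of 21 lymphocyte markers none. The stellate peaks summed to between 22.7 and 33.9 CPM in FPC controls and between 23.5 and 27.6 CPM in advanced FPC livers, and on CDAHFD to between 25.7 and 38.5 and between 27.0 and 35.5 CPM. The macrophage peak, at Cd14, a receptor for bacterial lipopolysaccharide that hepatocytes can also make, was low and went the other way from the members: from 0.793 to 2.16 CPM in controls, from 1.68 to 3.49 CPM in mild and from 4.69 to 5.61 CPM in advanced livers on FPC, and from 0.336 to 0.855, from 3.02 to 4.38 and from 6.66 to 9.47 CPM on CDAHFD. Control and advanced livers did not overlap at this peak in either diet. Cholangiocyte peaks (14 peaks of 9 of 17 markers) summed to between 143 and 156 CPM in FPC controls and between 200 and 233 CPM in advanced FPC livers, and on CDAHFD to between 133 and 153 and between 181 and 199 CPM. Hepatocyte marker peaks (18 peaks of 9 of 10 markers) went from between 421 and 478 CPM to between 390 and 411 CPM on FPC, and from between 432 and 453 to between 397 and 458 CPM on CDAHFD. Whether a change in the nuclei captured has a part in the loss at member peaks was not tested.

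**Figure D4:**
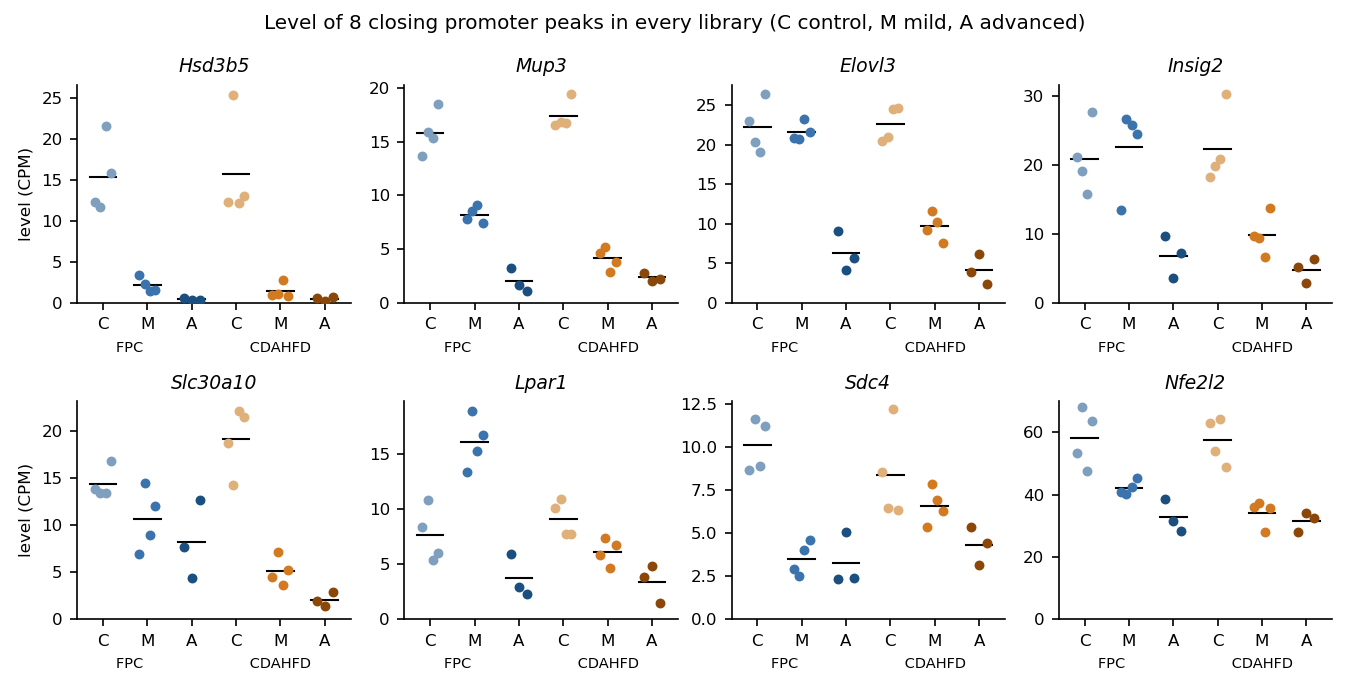
Level (CPM, vertical axis, from 0) of 8 member peaks in every library, by diet and stage (C control, M mild, A advanced); points are libraries and lines are means. Elovl3 and Insig2 show mild FPC livers at the level of controls, and Lpar1 shows them above it.

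Non-coding genes made up a part of the largest changes. 4930548G14Rik, whose peak lies in its first intron, was at 22, 21.3, 16.5 and 19.3 CPM in control, 12.6, 10.4, 10.2 and 10.5 CPM in mild and 3.1, 0.911 and 2.54 CPM in advanced livers on FPC. The CDAHFD libraries stood at 14, 11.5, 11.4 and 18 CPM in control, 0.919, 1.06, 0.651 and 0.322 CPM in mild and 0.217, 0.494 and 0.567 CPM in advanced livers. Mild CDAHFD livers were at the level of advanced ones, and mild FPC livers were about midway between the other stages. Trhde, a peptidase that breaks down thyrotropin-releasing hormone, had a like course. On FPC its peak was at 14.8, 12.8, 10.8 and 12.7 CPM in control, 3.79, 4.86, 6.33 and 6.62 CPM in mild and 2.68, 1.54 and 1.03 CPM in advanced livers. For CDAHFD the values were 9.12, 7.78, 7.04 and 8.23 CPM in control, 0.919, 1.46, 0.651 and 0.75 CPM in mild and 0.217, 0.494 and 0.708 CPM in advanced livers. Adgrf1, an adhesion G protein-coupled receptor, reached most of its advanced change in mild livers. Its level was 50.3, 32.2, 54.9 and 35 CPM in control, 12.2, 6.22, 6.5 and 4.69 CPM in mild and 5.28, 7.36 and 4.37 CPM in advanced livers on FPC. On CDAHFD it was 36.5, 62.8, 30.7 and 23.5 CPM in control, 9.71, 8.56, 16.2 and 4.5 CPM in mild and 4.33, 4.69 and 8.43 CPM in advanced livers, and in both diets the mild range overlapped with the advanced one but not with that of the controls.

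MicroRNA genes were nearest to 15 members (2.52%, against 0.857% of all promoter peaks), where the start is that of the annotated hairpin and not of a host transcript. RefSeq's mature sequences are shown for Mir10b, which had the third largest mean change, and for 3 others, with the seed (bases 2 to 8) in capitals.
mmu-miR-10b-5p: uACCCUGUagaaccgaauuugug
mmu-let-7k: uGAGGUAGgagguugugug
mmu-let-7c-5p: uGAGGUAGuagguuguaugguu
mmu-miR-203-3p: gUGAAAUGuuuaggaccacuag
The let-7k and let-7c sequences share their seed and so form 1 family, while the other 2 have seeds of their own. The Mir10b peak lies 666 bp past the start of the hairpin and beyond its mature sequences, in a stretch annotated as a transcription end. The Mir10b peak was at 21, 23.4, 18.3 and 23.7 CPM in control, 6.38, 5.86, 5.03 and 5.45 CPM in mild and 2.51, 1.47 and 0.318 CPM in advanced livers on FPC. Levels on CDAHFD were 8.76, 12.8, 11.5 and 13.9 CPM in control, 3.35, 2.85, 1.79 and 2.73 CPM in mild and 1.3, 0.987 and 1.27 CPM in advanced livers. Stages did not overlap, although controls of the 2 arms differed, with every CDAHFD control below every FPC control. Mir7k changed by −1.05 and −1.52, Mirlet7c-2 by −0.69 and −0.67, and Mir203 by −0.62 and −1.06. These 3 were chosen for display after their values were seen.

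Mild livers gave the one comparison that the choice of peaks left free, since no mild library entered it. CDAHFD mild was compared with FPC mild in edgeR's quasi-likelihood test over all 68827 peaks, with a call at an adjusted p under 0.05. Of the 596 members 109 were lower on CDAHFD (18.3%) and 6 were higher (1.01%), and 481 were not called. Over all peaks 6.75% were called lower and 4.64% higher, and over promoter peaks 3.37% and 1.99%. The median over members was −0.18 on the log2 scale, against −0.01 over promoter peaks. The 109 peaks lie at 101 genes, and their median was −0.72. Without a correction, 179 members had p under 0.05 in the lower direction and 20 in the higher one.

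The mild groups also differ in cohort and in time on diet (7 weeks against 20), so diet, time, cohort and the depth of disease within the mild class cannot be told apart. Control livers of the 2 arms give a difference without disease, taken here from CPM means with the 0.5 CPM offset. The offset shrinks differences at low peaks, so these values and those of edgeR are not on one scale. The median control difference was −0.10 over all members and −0.19 over the 109. Taken with the offset, the median mild difference was −0.16 over all members. For 15 of the 109 the controls differed by −0.6 or more in the same direction, and for 24 they differed by 0 or in the opposite direction. Olfr659 and Nrxn3 are of the first kind. For Olfr659, an olfactory receptor gene, mild livers differed by −3.45 ± 0.31 (SE, edgeR adjusted p 4.0e-08) and controls by −1.62. On FPC its peak was at 9.84, 8.19, 4.88 and 6.24 CPM in control, 13.2, 10, 13.2 and 13.2 CPM in mild and 3.68, 1.4 and 1.91 CPM in advanced livers. The CDAHFD libraries stood at 2.42, 2.1, 1.07 and 2.52 CPM in control, 0.459, 1.06, 0.813 and 1.93 CPM in mild and 0.65, 1.4 and 0.425 CPM in advanced livers. Mild FPC livers were above every FPC control, and all 11 CDAHFD libraries were below every FPC control. For Nrxn3, a neuronal adhesion gene, mild livers differed by −3.13 ± 0.30 (SE, edgeR adjusted p 8.2e-08) and controls by −1.73. Its level was 9.48, 10, 10.1 and 12 CPM in control, 12, 9.37, 6.24 and 8.13 CPM in mild and 7.37, 3.5 and 5.16 CPM in advanced livers on FPC. For CDAHFD the values were 3.92, 2.32, 2.39 and 2.52 CPM in control, 1.12, 1.46, 0.244 and 0.965 CPM in mild and 1.73, 0.741 and 1.27 CPM in advanced livers, again below every FPC control. SE values are not given by edgeR. They were taken here as the absolute log2 difference over the square root of the test's F statistic. At peaks with so few counts they are approximate.

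**Figure D5:**
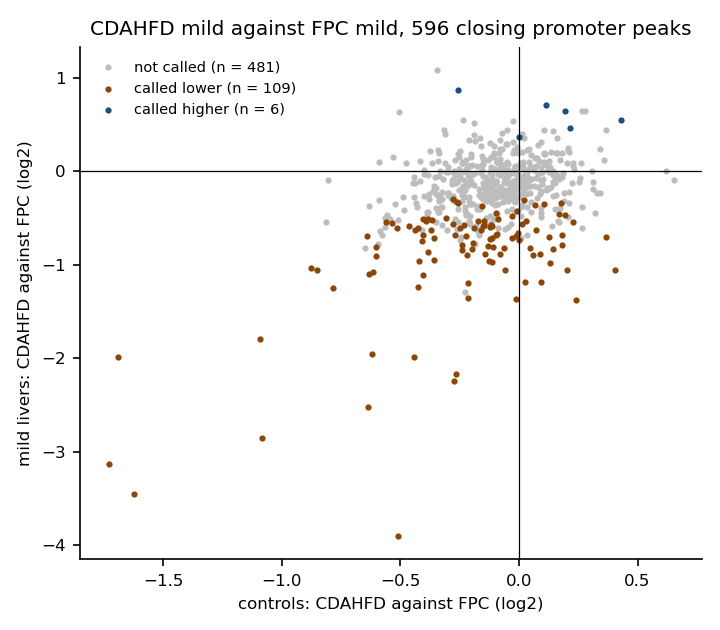
Difference between CDAHFD mild and FPC mild livers (vertical axis, log2, edgeR) against the difference between the control livers of the 2 arms (horizontal axis, log2), 1 point per member. Control differences are from CPM means with the 0.5 CPM offset, which shrinks them at low peaks, so the 2 axes are not on one scale. The 109 members called lower (brown) lie below 0, and the 6 called higher (blue) lie above 0.

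Some other members were lower in mild CDAHFD livers with like controls or with controls that differed the other way. Elovl3 was lower by a log2 difference of −1.19 ± 0.18 (SE, edgeR adjusted p 5.3e-05), with a control difference of 0.03. Insig2 differed by −1.19 ± 0.24 (SE, edgeR adjusted p 0.0017) against 0.09 in controls. Mup3 differed by −0.98 ± 0.20 (SE, edgeR adjusted p 0.0014) against 0.13. Slc30a10 differed by −1.06 ± 0.26 (SE, edgeR adjusted p 0.0073), and its controls by 0.40 in the opposite direction. D830013O20Rik differed by −1.37 ± 0.14 (SE, edgeR adjusted p 3.1e-07) against −0.01. This transcript was at 58.6, 57.5, 45.5 and 41.2 CPM in control, 54.2, 55, 64.8 and 59 CPM in mild and 42.8, 22.3 and 34 CPM in advanced livers on FPC. On CDAHFD it was at 48.9, 48.2, 49.6 and 53.9 CPM in control, 24.9, 23.4, 15 and 26.4 CPM in mild and 13.4, 15 and 16.8 CPM in advanced livers. Mild FPC livers overlapped with the upper controls, and mild CDAHFD livers were below all controls of their arm. The calls with the smallest p also held 4930548G14Rik (−3.90 ± 0.29), Srgap3, a GTPase-activating protein of neurons (−1.99 ± 0.20), and Trhde (−2.52 ± 0.28), with control differences of −0.51, −0.44 and −0.64. Controls at these peaks were not alike but differed in the same direction, and those of Trhde past −0.6.

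By list, the calls were few and all in the lower direction. Of 7 male-biased members 3 were called lower (Cyp2d9, Elovl3 and Mup3), and both members of fatty acid and sterol synthesis were. Urea cycle and amino acid breakdown had 3 of 16, at Ftcd and Haao, and bile acid genes 1 of 8, Slco2b1. Over all members 18.3% were called lower, close to the share of the urea cycle list. No list was tested against that share. None of the 15 plasma protein members was called, and their median was 0.14, opposite in sign to that of all members. The 6 members called higher in mild CDAHFD livers include Sdc4, Lin7a (1 of its 4 peaks), Hsd11b1, Prr16 and Hspd1. Sdc4, a heparan sulfate proteoglycan, was at 8.64, 11.6, 8.86 and 11.2 CPM in control, 2.89, 2.52, 3.99 and 4.61 CPM in mild and 2.34, 5.05 and 2.38 CPM in advanced livers on FPC. Levels on CDAHFD were 8.55, 6.44, 12.2 and 6.3 CPM in control, 5.32, 7.83, 6.91 and 6.27 CPM in mild and 5.36, 3.13 and 4.39 CPM in advanced livers. Mild FPC livers were at the level of advanced ones and all below mild CDAHFD livers, a difference of 0.87 ± 0.26 (SE, edgeR adjusted p 0.028). Hsd11b1, which regenerates active glucocorticoid, stood at 6.72, 9.38, 11.3 and 9.1 CPM in control, 4.18, 5.95, 4.33 and 6.37 CPM in mild and 4.02, 5.05 and 3.65 CPM in advanced livers on FPC. The CDAHFD libraries stood at 9.62, 5.84, 11 and 13.2 CPM in control, 8.01, 10, 7.56 and 8.68 CPM in mild and 4.71, 4.77 and 5.24 CPM in advanced livers. It differed by 0.71 ± 0.21 (SE, edgeR adjusted p 0.031). The number of calls in this direction depends on single livers: it was 2 without FPC mild library 3, and 3 without FPC mild library 2 or CDAHFD mild libraries 1, 2 or 4.

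Among members with the extremes of the mild share, Lpar1, a receptor for lysophosphatidic acid, did not lie between control and advanced livers on FPC. Its level was 8.4, 10.8, 5.38 and 5.99 CPM in control, 13.4, 18.9, 15.3 and 16.7 CPM in mild and 5.94, 2.87 and 2.3 CPM in advanced livers on FPC. For CDAHFD the values were 10.1, 10.9, 7.69 and 7.73 CPM in control, 5.78, 7.37, 4.64 and 6.75 CPM in mild and 3.79, 4.77 and 1.49 CPM in advanced livers. Mild FPC livers were above every control, and mild CDAHFD livers below every control. Aldh2, the mitochondrial aldehyde dehydrogenase, and Bmp2k, a kinase, showed mild changes between 0.01 and 0.13 in both diets, with advanced changes from −0.64 to −0.78. At the other end were Esr1, the estrogen receptor alpha, Thap2, Adgra3 and Timd2, whose mean mild share was above 100%. Esr1 was at 6, 8.98, 5.8 and 9.35 CPM in control, 3.59, 3.69, 2.43 and 4.11 CPM in mild and 3.18, 2.8 and 3.18 CPM in advanced livers on FPC. On CDAHFD it was at 6.63, 6.06, 5.25 and 7.81 CPM in control, 2.76, 3.58, 2.93 and 2.41 CPM in mild and 3.52, 3.13 and 5.1 CPM in advanced livers. Mild livers were below all controls and overlapped with advanced livers in both diets, with mean mild changes of −1.02 in each.

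The genes of member peaks also held peaks farther out, which the choice did not use but which come from the same livers and contrast, so they are described only. Between 1 and 50 kb from their starts lay 1947 peaks of 402 of these genes. Of those peaks 32.7% were lower by at least 0.6 in both diets, against 15.7% of the 36715 such peaks of all genes, and 5.65% were higher, against 16.1%. Their median changes were −0.53 on FPC and −0.42 on CDAHFD, against −0.12 and −0.11. A closing distal peak was present at 261 of the 402 genes, against 3469 of the 11033 genes with a peak at that distance. Member genes had more such peaks per gene, which by itself makes a closing one more likely, so the gene counts are not alike. The 549 other promoter peaks of member genes had medians of −0.12 and −0.14, against 0.21 and 0.12 over all other promoter peaks. Of them 18 were higher by at least 0.6 in both diets (3.28%, against 9.49%).

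The threshold passes through a continuous range of values. Just inside it lay a peak of Sod1, superoxide dismutase, 593 bp past the start, with −1.13 on FPC and −0.60 on CDAHFD. Upp2, a uridine phosphorylase, lay there too, with −0.68 and −0.60. Just outside lay Slc43a1, an amino acid carrier, with −0.98 and −0.60, and a peak of Adh4, an alcohol dehydrogenase, with −1.11 and −0.60. On CDAHFD these 4 peaks differed by less than the spread between replicates. Nearer to the Sod1 start, at 266 bp, another promoter peak was higher in advanced livers, by 1.06 on FPC and 0.71 on CDAHFD.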

How the data were processed

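The deposited table of un-normalized values, in steps of 0.5 per peak, was used as the authors gave it and read here, from its values alone, as a table of expected counts, with CPM taken over each column's sum. The tools named in the submitters' processing notes are BWA (0.7.5a-r405), SAMtools, HOMER and DESeq2, on the mm10 build, and no source used here gives their settings. The authors' second table holds a signal, the deposited counts divided by 1 factor per library, and served as an alternative only. Distances, region types and nearest genes are the authors' annotation, per the file headers. Coordinates of peaks are printed as in the files. Totals of 3.79 to 9.33 (in units of 1000000 counts) limit the precision at low peaks, and 14 pairs of neighbouring members overlap.

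Members were picked with Python 3.11.15 by the rule in the text. For the mild livers, counts were rounded and tested in R 4.3.3 with edgeR 4.0.16 (TMM, filterByExpr, which kept all 68827 peaks, and a quasi-likelihood fit of 6 groups over 22 libraries), with Benjamini-Hochberg adjustment over all peaks. Data of that comparison were simulated over 68827 peaks, with 200 peaks of any level, drawn at random, changed. Of those changed 1.5-fold 34.3% were called, as were 70.1% of those changed 2-fold and 98.5% of those changed 4-fold, beside 6 false calls. A far smaller share of peaks changed there than was called in the mild livers, so these shares may not hold for the livers. DESeq2 1.42.0 was an alternative. The members and lists were chosen with earlier results of these data known. Named peaks are the 8 with the largest mean change, the 8 highest in controls, up to 6 per direction with the smallest p in mild livers, up to 4 per gene list, 2 on each side of the threshold, the 4 with the largest and the 4 with the smallest mild share, and the 3 per direction that differ most between diets. The patterns for ribosomal and respiratory chain genes were corrected after the members were seen. Of the members 446 have a RefSeq entry. Some members are not reported here by name.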

Additional observations from a re-analysis of the deposited data

Results flagged for a closer look

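In 25 sets of values, the summed level and the 24 peaks given library by library, each group of 4 libraries was searched for a library far from the other 3, by the gap to the nearest library as a share of the group's range. Of 100 groups 11 had a gap above the 95% critical value of Dixon's test for 4 samples, and chance puts about 1 in 20 groups there. The summed level had none.

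Hsd3b5 was high in CDAHFD control library 2, at 25.5 CPM against 12.2 to 13.1 CPM (gap 0.933 of the range), and in CDAHFD mild library 3, at 2.77 CPM against 0.858 to 0.996 (0.928). Serpina3k was high in FPC mild library 1, at 28.1 CPM against 8.3 to 11.1 (0.859). CDAHFD control library 4 was the highest for Mup3, at 19.4 CPM against 16.5 to 16.8 (0.891), and for Thrsp, at 60.8 CPM against 38.9 to 42.2 (0.849). FPC mild library 1 was the lowest for Insig2, at 13.4 CPM against 24.4 to 26.7 (0.8294), and the highest for 4930548G14Rik, at 12.6 CPM against 10.2 to 10.5 (0.892). Slc30a10 was highest in FPC control library 4, at 16.8 CPM against 13.4 to 13.8 (0.886). Nfe2l2 was lowest in CDAHFD mild library 3, at 28.0 CPM against 35.6 to 37.2 (0.833). Olfr659 was lowest in FPC mild library 2, at 10 CPM against 13.2 in the other 3 (0.993). Nrxn3 was highest in CDAHFD control library 1, at 3.92 CPM against 2.32 to 2.52 (0.875).

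Lpar1 was the one member whose mild libraries lay above all controls in one diet and below all controls in the other, with mild changes of 1.02 on FPC and −0.54 on CDAHFD. The difference between these changes was not tested.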

How the results depend on the processing

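The number of peaks that pass the rule stayed within 1.5 times of 596 with other offsets, with TMM-scaled totals, with the authors' normalized signal and with any control or advanced library left out (560 to 643). It was 345 with a distance limit of 500 bp and 163 with a threshold of −1, both smaller by construction. The added alternative without 3 control libraries was chosen after seeing the data.

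The median change of members, advanced against control, was −0.81 on FPC and −0.78 on CDAHFD with an offset of 2 CPM, which shrinks the changes of low peaks. It ran from −0.98 to −0.88 and from −0.96 to −0.91 with a library left out. Median mild shares ran from 46.3 to 49.2% on FPC and from 53.3 to 56.8% on CDAHFD with a mild library left out.

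In mild livers the number of members called lower was 65 of 474 tested where every group mean had to reach 20 counts, a setting that tests fewer peaks. Over the other settings it ran from 82 to 123, and from 82 to 108 with a mild library left out. The number called higher ran from 2 to 7 with a library left out. Of 34 named members with a call, 20 kept it under every alternative that tested them, 71 of 499 values lost it, 63 of these with a library left out, and none changed sign. Counts cut down to whole numbers, no filter, other scaling, DESeq2 and the mild groups alone moved neither count by more than 1.5 times.

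No paired analysis was possible because replicate numbers only name libraries, each from a different mouse. Small changes can be missed, since 1.5-fold changes were recovered in a minority of simulated cases. Recovery was not split by the level of a peak, so the limit at low peaks was not measured.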
